A study of Mus musculus with 68 samples.

Results

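Colony-forming unit erythroid cells (CFU-E) of GS-KO mice were compared with CFU-E of wild-type (WT) mice by RNA-seq. The members are 6 libraries of the 68 in the series, 3 labelled GS-KO and 3 labelled WT, with all 24059 genes of the count table. Both groups are mouse bone marrow cells enriched by flow cytometry in the CFU-E gate, and no drug or other agent is named for either. GS is taken here as glutamine synthetase, encoded by Glul. The labels name no deleted exon, no promoter or Cre line that drives the deletion, no other tissue that carries it, and no strain, age or sex of the mice. The labels do not say whether the 3 libraries of a group come from separate mice. The p-values below weigh the difference between groups against the spread of libraries within a group, and that spread may be technical alone. GS-KO and WT libraries of the gates before and after CFU-E, called BFU-E and ERY-I-II (3 of each), are used only where they show how CFU-E differ. A separate set of sorted stages, called the stage series here, shows which genes CFU-E express without reference to GS-KO or WT libraries.

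Glutamine synthetase joins ammonium to glutamate to make glutamine, whose amide nitrogen enters purines, pyrimidines, asparagine and amino sugars. CFU-E are fast-dividing progenitors that depend on erythropoietin and its receptor, carry Kit and begin to take up iron through the transferrin receptor. They have not yet filled with hemoglobin, and they follow BFU-E (burst-forming unit erythroid cells) and precede the erythroblast stages named ERY. Early erythroid genes were present in both genotypes: the 12 early erythroid markers, Epor, Gata1, Klf1, Tfrc and Kit among them, summed to 5878 to 5977 counts scaled to a library total of 1e+06 (CPM) in GS-KO libraries and 6255 to 6326 CPM in WT libraries, with no member at 0. This sum is not particular to CFU-E, as it averaged 5481 CPM in WT BFU-E and 8628 CPM in WT ERY-I-II.

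The 3 GS-KO libraries held 6254569, 9636964 and 15806844 counts and the 3 WT libraries 8306412, 7114240 and 8335034 counts, within the range of 1630863 to 15806844 over the series. Between 14073 and 15061 genes had a count in GS-KO libraries, against 13089 to 13353 in WT libraries. Levels below are CPM and are not scaled by gene length, so they are compared within a gene. Fold changes are GS-KO over WT on the log2 scale from edgeR's quasi-likelihood test, with p-values adjusted by the Benjamini-Hochberg method over the 10859 genes that passed the filter on low counts. A gene is said to have risen or fallen only where the adjusted p was under 0.05.

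Glul (chromosome 1, 153899929 to 153909723, GRCm38.p6) was detected at 34.7, 37.5 and 35.9 CPM in the GS-KO libraries, against 89.7, 84.2 and 84.2 CPM in the WT libraries. The highest GS-KO library lay well below the lowest WT library, and Glul fell in GS-KO CFU-E (log2 fold change -1.26 ± 0.061 SE, adjusted p = 3.92e-17), to 41.9% of the WT mean. Epor, the erythropoietin receptor gene (chromosome 9, 21958897 to 21963576), was detected at 42.7, 39 and 40.4 CPM in the GS-KO libraries, against 86.9, 91.2 and 78.3 CPM in the WT libraries. The groups again did not overlap (log2 fold change -1.08 ± 0.064 SE, adjusted p = 5.49e-15), and the GS-KO mean was 47.6% of the WT mean. Among the 8840 tested genes with at least 5 CPM in CFU-E of the stage series, Glul and Epor were the 2 that fell at least 2-fold. Rap1gap, Pawr and Mid1, given below, also fell at least 2-fold and were expressed in WT CFU-E. They lay outside that set, so the stage series and WT CFU-E differ in level for some genes.

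The promoters of 6 genes on which the results turn are shown from 250 bases before to 50 bases after the start site, 5′ to 3′ on the gene's strand, as RefSeq gives them on GRCm38.p6. Glul and Epor are shown as the 2 falls of at least 2-fold among genes with at least 5 CPM in stage-series CFU-E. Alas2 and Hba-a1 are shown as late erythroid genes that rose, and Mpo and Ngp as neutrophil genes that rose. Capitals mark matches on either strand to 4 short motifs. GATA is AGATAA, with TGATAA also accepted for it, and KLF is CCNCNCCC. C/EBP is TTGCNNAA, and PU.1 is GAGGAAG.
Glul, chr1:153899679-153899978, plus strand: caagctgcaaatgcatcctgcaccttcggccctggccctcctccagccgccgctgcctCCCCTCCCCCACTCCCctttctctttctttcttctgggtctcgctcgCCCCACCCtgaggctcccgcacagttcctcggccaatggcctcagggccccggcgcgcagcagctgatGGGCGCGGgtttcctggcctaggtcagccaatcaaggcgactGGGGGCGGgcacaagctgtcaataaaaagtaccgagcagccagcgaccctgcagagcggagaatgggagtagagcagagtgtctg
Epor, chr9:21963527-21963826, minus strand: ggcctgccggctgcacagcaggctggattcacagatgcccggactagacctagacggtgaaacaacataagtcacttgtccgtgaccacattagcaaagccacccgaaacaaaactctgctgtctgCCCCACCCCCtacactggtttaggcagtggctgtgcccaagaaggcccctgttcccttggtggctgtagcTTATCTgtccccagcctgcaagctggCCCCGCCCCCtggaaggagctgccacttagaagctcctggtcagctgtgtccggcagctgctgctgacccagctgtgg
Alas2, chrX:150547167-150547466, plus strand: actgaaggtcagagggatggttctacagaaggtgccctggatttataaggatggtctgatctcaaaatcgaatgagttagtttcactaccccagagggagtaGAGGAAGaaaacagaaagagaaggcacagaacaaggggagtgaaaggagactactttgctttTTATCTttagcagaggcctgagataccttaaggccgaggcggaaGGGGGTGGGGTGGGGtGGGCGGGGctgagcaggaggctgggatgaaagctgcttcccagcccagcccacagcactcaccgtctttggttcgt
Hba-a1, chr11:32283422-32283721, plus strand: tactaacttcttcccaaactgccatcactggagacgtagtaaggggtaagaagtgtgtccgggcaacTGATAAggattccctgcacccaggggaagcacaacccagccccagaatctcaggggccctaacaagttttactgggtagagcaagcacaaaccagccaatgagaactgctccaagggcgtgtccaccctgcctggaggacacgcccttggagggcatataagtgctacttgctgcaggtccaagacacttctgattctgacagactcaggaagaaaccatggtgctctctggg
Mpo, chr11:87793534-87793833, plus strand: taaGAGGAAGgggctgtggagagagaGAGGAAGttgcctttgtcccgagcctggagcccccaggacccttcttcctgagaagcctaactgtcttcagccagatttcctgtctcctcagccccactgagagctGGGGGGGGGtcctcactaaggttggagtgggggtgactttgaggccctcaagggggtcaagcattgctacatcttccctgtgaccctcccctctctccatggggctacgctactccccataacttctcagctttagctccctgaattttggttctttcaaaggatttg
Ngp, chr9:110419558-110419857, plus strand: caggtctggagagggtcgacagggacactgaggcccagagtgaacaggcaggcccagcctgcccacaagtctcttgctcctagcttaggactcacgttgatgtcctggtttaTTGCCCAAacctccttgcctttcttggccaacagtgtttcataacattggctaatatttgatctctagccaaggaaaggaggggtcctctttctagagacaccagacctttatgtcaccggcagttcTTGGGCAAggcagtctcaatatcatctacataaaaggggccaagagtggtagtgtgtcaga

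The Glul window held 6 KLF matches, 3 of them overlapping, and 64.3% of its bases were G or C. Epor held a GATA match that begins 54 bases before the start site and 4 KLF matches in 2 overlapping pairs. Alas2 held a GATA match that begins 86 bases before the start site, 4 KLF matches and a PU.1 match, and Hba-a1 a single GATA match. Mpo held 2 PU.1 matches and 2 overlapping KLF matches, and Ngp 2 C/EBP matches. In the 27025 promoters of the table, GATA matches were in 19%, KLF in 49.1%, C/EBP in 10.8% and PU.1 in 13.5%. Of the 671 promoters matched to the 916 genes that rose at least 2-fold, 25% held PU.1, 10.7% C/EBP, 13.4% GATA and 68.9% KLF. Of the 8232 promoters matched to tested genes, 13.5% held PU.1, 8.01% C/EBP, 9.79% GATA and 68.4% KLF. Of the 975 promoters of the 1250 genes that fell, 12.6% held PU.1, 8.51% C/EBP, 10.5% GATA and 69.2% KLF. These shares describe letters in a fixed window and show no binding.

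Glul did not fall equally along the series of gates. In GS-KO libraries it stood at 80.9% of the WT mean in BFU-E and 41.9% in CFU-E. The share was 13.5% for ERY-I-II, 12.1% for ERY-III-VI and 9.17% for ERY-V-VI. The effect in CFU-E was larger than in BFU-E (difference of log2 fold changes -0.92 ± 0.079 SE, adjusted p = 1.55e-12) and smaller than in ERY-I-II (1.47 ± 0.13 SE, adjusted p = 1.03e-13), each difference tested as an interaction of genotype and gate. Glul itself was expressed throughout the WT gates, at a mean of 122 CPM in BFU-E and 86 CPM in CFU-E. WT means were 110 CPM for ERY-I-II, 159 CPM for ERY-III-VI and 254 CPM for ERY-V-VI. Epor stood at 53.7%, 47.6%, 59.6%, 47.3% and 69.3% of the WT mean in the same 5 gates. Its effect in CFU-E missed the threshold against BFU-E (-0.16 ± 0.1 SE, adjusted p = 0.349) and was larger than in ERY-I-II (-0.50 ± 0.097 SE, adjusted p = 7.98e-05).

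**Figure D1:**
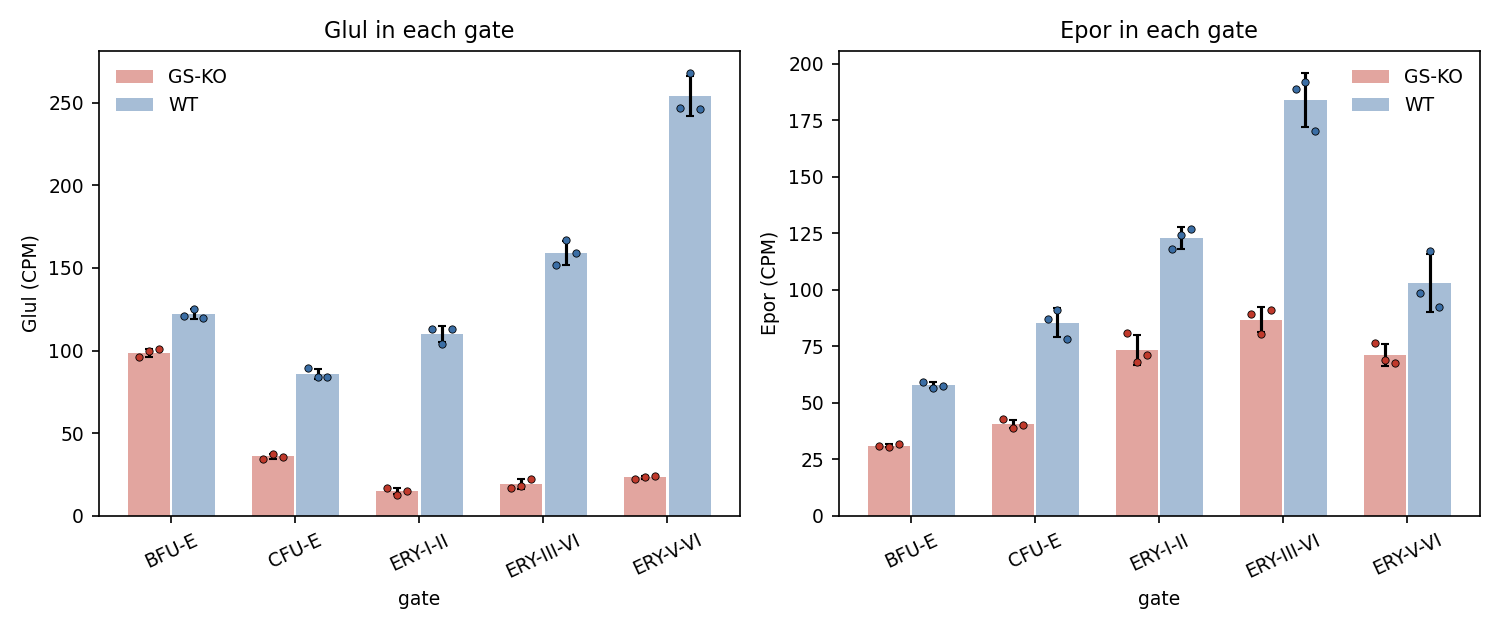
Glul (left) and Epor (right) in CPM in each gate, with GS-KO left of WT. Bars are means, error bars SD and points the 3 libraries of a group; in CFU-E the GS-KO libraries lie between 34.7 and 37.5 CPM for Glul and between 39 and 42.7 CPM for Epor, below every WT library.

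Over all tested genes, 3191 of 10859 passed the threshold (29.4%), of which 1941 were higher in GS-KO CFU-E (17.9%) and 1250 lower (11.5%). Rises and falls differed in size. At least 2-fold, 916 genes were higher (8.44%) and 15 lower (0.138%), and 1199 of the 1250 falls were smaller than 1.5-fold. The median log2 fold change was 0.907 among the rises, -0.161 among the falls and 0.0039 over all tested genes. Of the 916 genes that rose at least 2-fold, 901 had no overlap of CPM between the groups. These genes were picked for large called rises in the same libraries, so that count is a description and no separate support. Together the 916 genes summed to 16460 CPM in GS-KO libraries and 2131 CPM in WT libraries on average.

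Most large rises were in genes that CFU-E of the stage series held at low levels. Among the 8840 tested genes with at least 5 CPM in stage-series CFU-E, 1047 rose and 1215 fell, 132 rose at least 2-fold and 2 fell at least 2-fold. Among the 2019 tested genes under that level, 894 rose, 784 of them at least 2-fold, and 35 fell. Of the 916 genes that rose at least 2-fold, 219 had 3 or fewer counts over the WT libraries and 61 had none, so the size of those rises is open upward. A gene so low in WT passed the filter only through its GS-KO libraries, so counts and medians of gene lists with such members are descriptions and no support for a rise. At a stricter level of 20 CPM in stage-series CFU-E, 35 of 6699 genes rose at least 2-fold and 2 fell at least 2-fold.

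**Figure D2:**
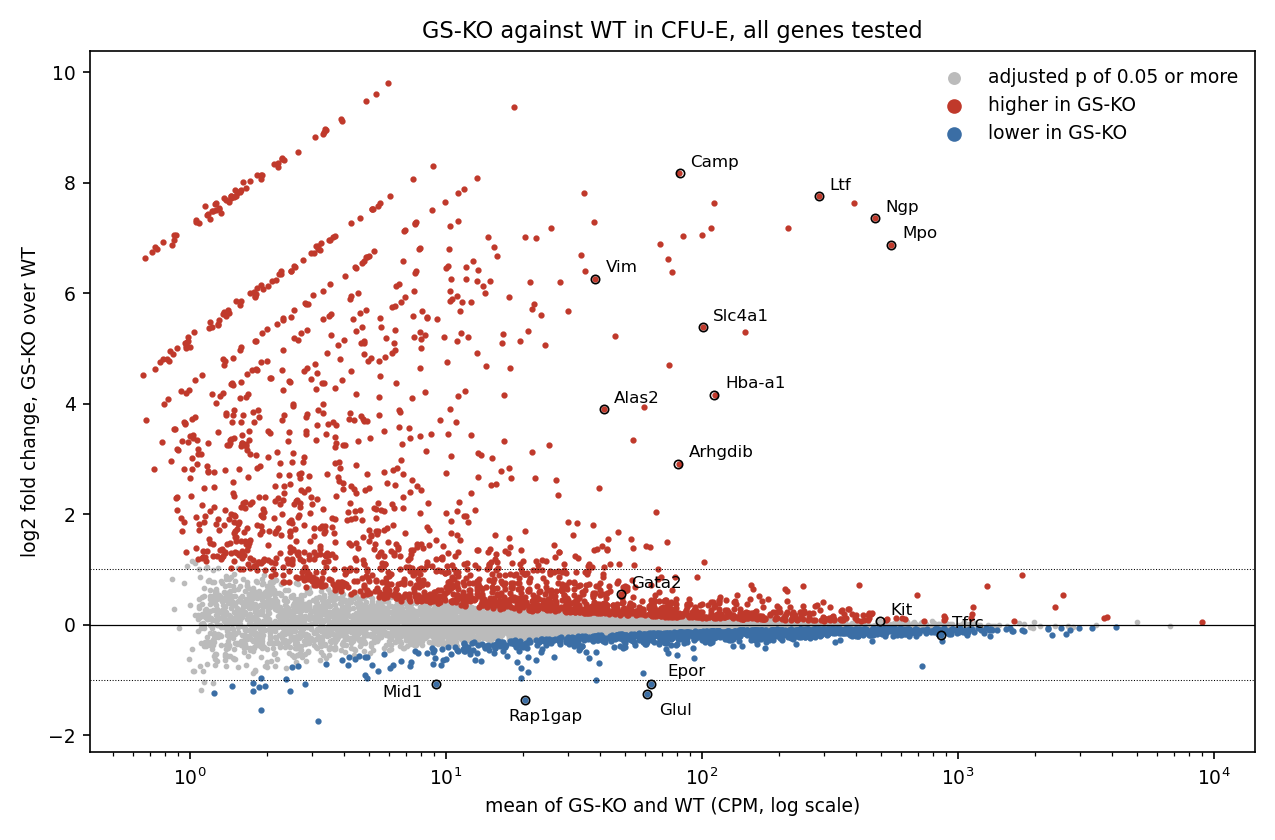
Log2 fold change of GS-KO over WT (vertical axis) against the mean CPM of the 2 groups (horizontal, log axis) for the 10859 genes tested in CFU-E. Dotted lines mark 2-fold; the 916 rises of at least 2-fold spread upward and the 1250 falls, below 0, stay mostly under 1.5-fold, while the slanted rows of points at the upper left are genes with 0, 1 or a few WT counts, whose fitted fold depends on a prior count.

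Genes of other blood lineages were among the largest rises. The 13 neutrophil markers with a row in the table, granule and secretory genes of neutrophils and their precursors, summed to 4441 to 4523 CPM in GS-KO CFU-E and 26.99 to 30.46 CPM in WT CFU-E, with no member at 0 in either group. Mpo, the myeloperoxidase of primary granules, was detected at 1100, 1070 and 1100 CPM in the GS-KO libraries, against 11.4, 8.29 and 7.8 CPM in the WT libraries. Ngp, the neutrophilic granule protein, was detected at 943, 946 and 949 CPM in the GS-KO libraries, against 4.57, 6.47 and 6.24 CPM in the WT libraries. For both genes the lowest GS-KO library lay far above the highest WT library. S100a9, a subunit of calprotectin, was detected at 790, 818 and 731 CPM in the GS-KO libraries, against 4.33, 3.09 and 4.2 CPM in the WT libraries. Ltf, lactoferrin, averaged 569 ± 9.2 CPM in GS-KO and 2.57 ± 0.77 CPM in WT (SD, n = 3 each), Lcn2, a siderophore-binding protein, 222 ± 6.6 CPM in GS-KO and 1.11 ± 0.44 CPM in WT (SD, n = 3 each), and Camp, the cathelicidin precursor, 163 ± 5 CPM in GS-KO and 0.554 ± 0.27 CPM in WT (SD, n = 3 each). Each of these 6 genes rose (log2 fold change 6.88 ± 0.051 for Mpo, 7.36 ± 0.051 for Ngp, 7.63 ± 0.069 for S100a9, 7.76 ± 0.064 for Ltf, 7.64 ± 0.1 for Lcn2 and 8.18 ± 0.12 for Camp, SE). Of the neutrophil markers 12 had a promoter in the table, of which 7 held PU.1 matches and 6 C/EBP matches like those printed for Mpo and Ngp.

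Marker sums of further lineages were higher too, at lower levels. Monocyte and macrophage markers summed to 269.6 to 281.5 CPM in GS-KO and 5.418 to 6.119 CPM in WT; 8 of 17 passed the filter on low counts, Marco was at 0 in both groups, and Emr1, Cd14 and Timd4 were at 0 in WT. Lyz2, lysozyme of myeloid cells, carried most of that sum (215 CPM in GS-KO and 1.42 CPM in WT). Mast cell, basophil and eosinophil markers summed to 74.4 to 79.4 CPM in GS-KO and 0.4799 to 1.968 CPM in WT, with 5 of 11 past the filter, Tpsb2 at 0 in both groups and Mcpt8, Fcer1a, Prss34, Gzmb and Cma1 at 0 in WT. The sum was led by the eosinophil granule genes Prg2 (44.8 CPM in GS-KO and 0.355 CPM in WT) and Epx (17.8 CPM in GS-KO and 0.0401 CPM in WT). B cell markers summed to 34.48 to 38.6 CPM in GS-KO and 1.92 to 3.251 CPM in WT, with 8 of 12 past the filter and Cd79b, Ebf1 and Ms4a1 at 0 in WT. T and NK cell markers reached only 12.63 to 13.85 CPM in GS-KO and 0.8427 to 1.32 CPM in WT, with Nkg7 the 1 member of 12 past the filter and Cd3e, Cd3d, Ncr1, Gzma, Prf1 and Thy1 at 0 in WT. Megakaryocyte and platelet markers summed to 50.53 to 56.12 CPM in GS-KO and 31.19 to 34.86 CPM in WT. Of 13 members 7 passed the filter, with Gp6 at 0 in both groups, and Ppbp and Gp1bb at 0 in WT. Of those 7, 4 rose and 3 missed the threshold, beside 17.9% higher over all tested genes. Itgb3, with 1 count over the WT libraries, passed the filter only through its GS-KO libraries. Gp1ba (10.4 CPM in GS-KO and 10.1 CPM in WT) and Vwf (9.04 CPM in GS-KO and 8.91 CPM in WT) hardly differed. Tubb1, not tested, was lower (0.122 CPM in GS-KO and 0.207 CPM in WT). For the sums of these 5 lists and the neutrophil list the lowest GS-KO library lay above the highest WT library. In bulk libraries, fewer or more cells of a type and less or more RNA per cell cannot be told apart.

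**Figure D3:**
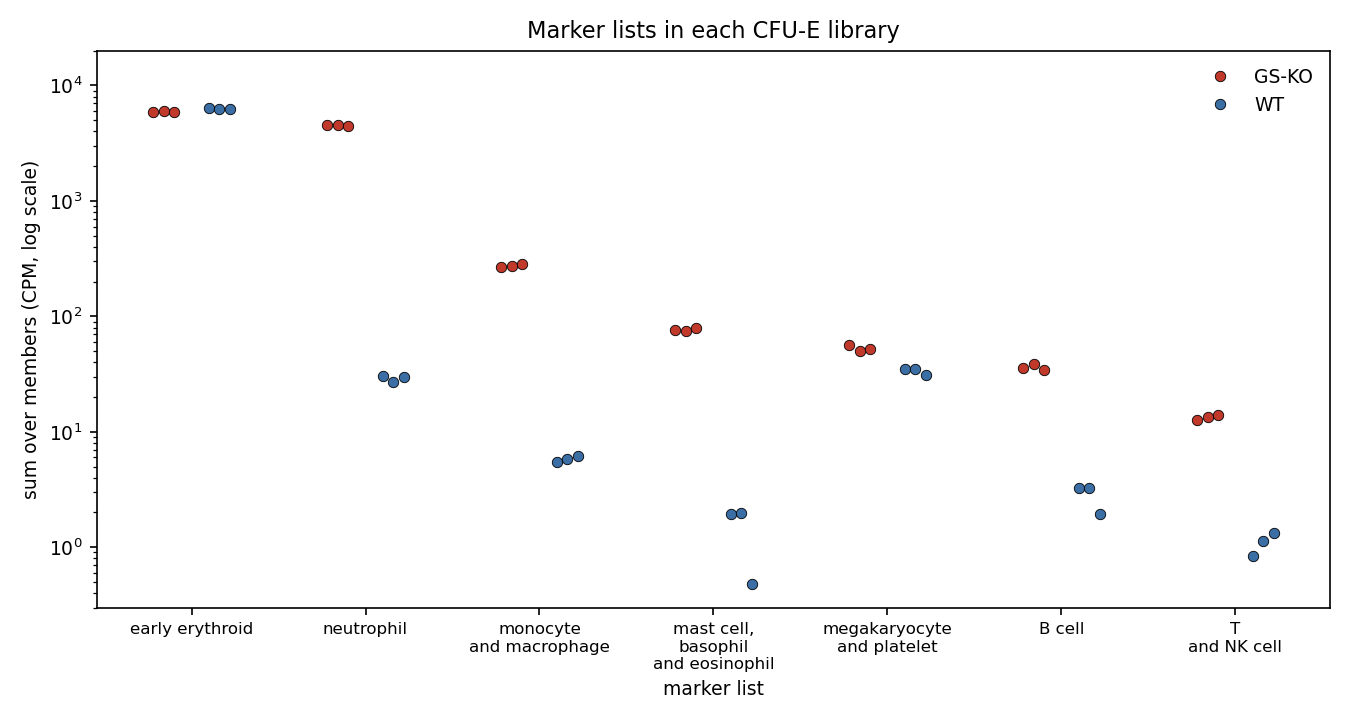
Sum of CPM over the members of 7 marker lists (log axis) in each CFU-E library, GS-KO left of WT, 1 point per library. The neutrophil sum lies between 4441 and 4523 CPM in GS-KO and between 26.99 and 30.46 CPM in WT, while the early erythroid sums lie close together.

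The neutrophil sum was high in every GS-KO gate. It was 7237 to 7316 CPM in GS-KO BFU-E and 30.42 to 38.77 CPM in WT BFU-E, and 6344 to 6446 CPM in GS-KO ERY-I-II and 110.6 to 118.7 CPM in WT ERY-I-II. It reached 10150 to 10240 CPM in GS-KO ERY-III-VI and 259.4 to 263.6 CPM in WT ERY-III-VI, and 13700 to 13860 CPM in GS-KO ERY-V-VI and 627.2 to 665.5 CPM in WT ERY-V-VI. Within GS-KO, CFU-E thus had the lowest sum of the 5 gates.

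Globin genes, Slc4a1 and Alas2 were also higher in GS-KO CFU-E. Slc4a1 and globin genes were among those with 20 CPM or more in stage-series CFU-E, above the WT CFU-E levels given here. Their folds thus rest on WT levels lower than those of the stage series. Slc4a1, the band 3 anion exchanger of the red cell membrane, was detected at 202, 195 and 194 CPM in the GS-KO libraries, against 4.82, 3.8 and 5.28 CPM in the WT libraries. Hba-a1, an adult alpha-globin gene, was detected at 219, 211 and 207 CPM in the GS-KO libraries, against 13.4, 11.7 and 10.3 CPM in the WT libraries. Hbb-b1, an adult beta-globin gene, was detected at 295, 289 and 280 CPM in the GS-KO libraries, against 6.86, 8.29 and 6.84 CPM in the WT libraries. No GS-KO library came near a WT library in these 3 genes (log2 fold change 5.39 ± 0.077 for Slc4a1, 4.16 ± 0.064 for Hba-a1 and 5.29 ± 0.063 for Hbb-b1, SE). Alas2, the erythroid enzyme that starts heme synthesis, was detected at 79.6, 78.6 and 74.6 CPM in the GS-KO libraries, against 4.82, 5.06 and 5.52 CPM in the WT libraries (log2 fold change 3.90 ± 0.098 SE, adjusted p = 9.83e-25). The 7 globin genes with a row in the table summed to 605.2 to 639.1 CPM in GS-KO and 21.12 to 23.9 CPM in WT. The 4 of them that were tested rose, beside 17.9% higher over all tested genes. Hba-a1 and Hba-a2, and likewise Hbb-b1 and Hbb-b2, are near-identical copies. How reads were split within each pair is thus uncertain, and the 4 rises are not 4 separate observations. These are erythroid genes, and the neutrophil and monocyte sums given above were higher in the same libraries. Which cells of these bulk libraries carried the rises was not tested.

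Those levels stayed far under those of the next gate. Hba-a1 averaged 11130 CPM in GS-KO ERY-I-II and 4940 CPM in WT ERY-I-II, and Slc4a1 9423 CPM in GS-KO ERY-I-II and 6710 CPM in WT ERY-I-II. As a fold, the effect in CFU-E was larger than in ERY-I-II for Slc4a1 (4.73 ± 0.056 SE, adjusted p = 8.08e-51), Hbb-b1 (4.09 ± 0.05 SE, adjusted p = 1.42e-50), Hba-a1 (2.82 ± 0.051 SE, adjusted p = 2e-42) and Alas2 (2.66 ± 0.076 SE, adjusted p = 4.4e-33). Against BFU-E it was smaller for Hba-a1 (-1.95 ± 0.17 SE, adjusted p = 2.74e-12), Alas2 (-0.95 ± 0.21 SE, adjusted p = 0.000745) and Hbb-b1 (-0.48 ± 0.16 SE, adjusted p = 0.0352), and missed the threshold for Slc4a1 (-0.50 ± 0.21 SE, adjusted p = 0.101).

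**Figure D4:**
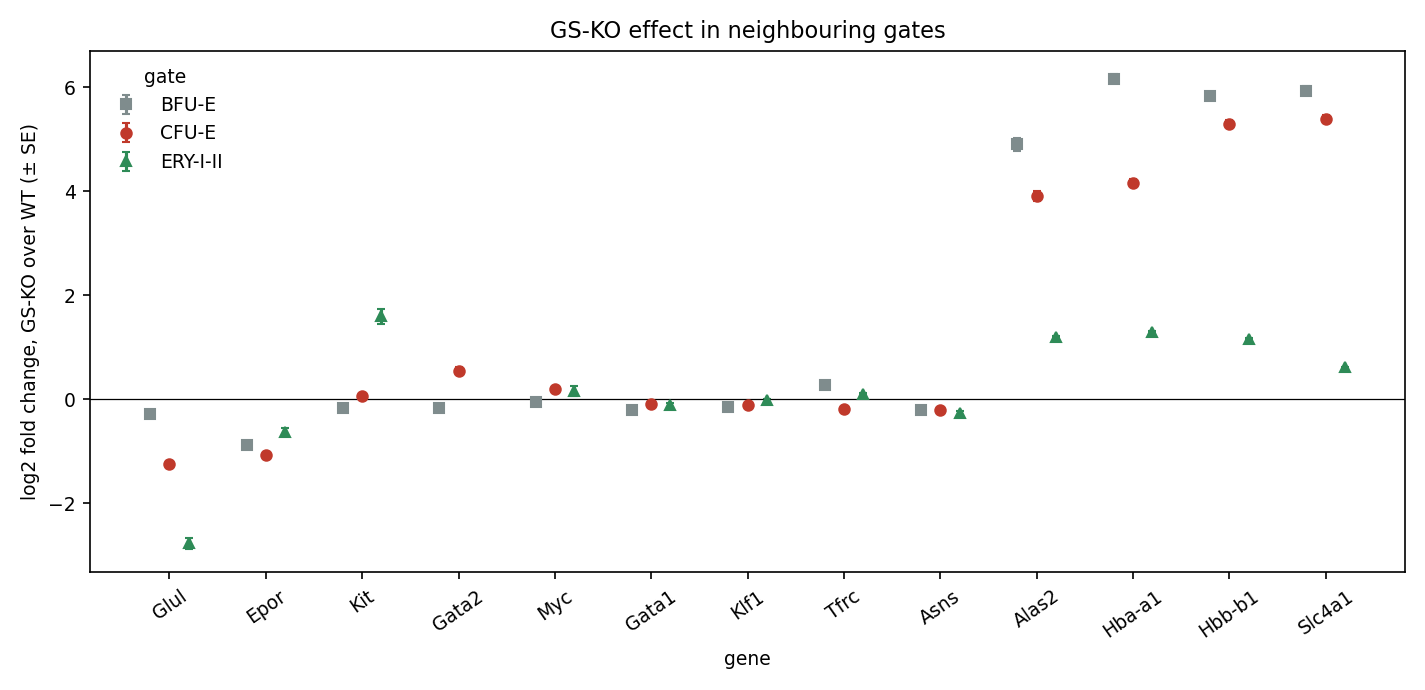
Log2 fold change of GS-KO over WT with SE for 13 genes in BFU-E, CFU-E and ERY-I-II, each gate fitted on its own libraries. Glul falls further from gate to gate, from -0.29 in BFU-E over -1.26 in CFU-E to -2.77 in ERY-I-II, while Alas2, Hba-a1, Hbb-b1 and Slc4a1 lie between 3.90 and 6.16 in BFU-E and CFU-E and between 0.61 and 1.29 in ERY-I-II; Gata2 has no value in ERY-I-II, where it was not tested.

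Many stem and progenitor genes were higher in GS-KO CFU-E. Of 22 listed genes 20 were tested, 15 rose and none fell, with a median log2 fold change of 0.578 beside 17.9% higher and a median of 0.0039 over all tested genes. Gata2, a transcription factor of early progenitors, was detected at 62.2, 56.4 and 54.3 CPM in the GS-KO libraries, against 37.9, 38.8 and 40.1 CPM in the WT libraries (log2 fold change 0.55 ± 0.07 SE, adjusted p = 1.82e-07). The lowest GS-KO library was well above the highest WT library. Kit, the stem cell factor receptor, was detected at 515, 505 and 499 CPM in the GS-KO libraries, against 478, 490 and 482 CPM in the WT libraries. The groups lay close together without overlap, and Kit missed the threshold (log2 fold change 0.062 ± 0.025 SE, adjusted p = 0.0598), which it passed without GS-KO replicate 3 (adjusted p = 0.0414). Cd34, a surface protein of early progenitors, was detected at 13.6 CPM in GS-KO and 0.2 CPM in WT, Fli1, a transcription factor of megakaryocytes and stem cells, at 24.5 CPM in GS-KO and 2.94 CPM in WT, and Spi1, which encodes the myeloid factor PU.1, at 15.5 CPM in GS-KO and 0.468 CPM in WT. All 3 rose (log2 fold change 5.93 ± 0.31 for Cd34, 3.06 ± 0.16 for Fli1 and 5.01 ± 0.25 for Spi1, SE). Flt3, a receptor of multipotent and lymphoid progenitors, Erg and Hlf rose as well, all under 11 CPM in every library. Of the 20 tested genes, 8 rose at least 2-fold, and neutrophil and other lineage markers were higher in the same libraries, whose part in these rises was not tested.

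Erythroid transcription factors moved both ways, mostly by small amounts. Of 23 tested, 5 rose and 11 fell, with a median log2 fold change of -0.065, beside 17.9% higher and 11.5% lower over all tested genes. Their log2 fold changes ran from -0.201 to 4.75, and 1 gene, Ets1, changed at least 2-fold. Gata1, the main erythroid factor, was detected at 181, 183 and 185 CPM in the GS-KO libraries, against 189, 199 and 199 CPM in the WT libraries. Klf1, the activator of adult globin genes, was detected at 266, 288 and 276 CPM in the GS-KO libraries, against 300, 296 and 301 CPM in the WT libraries. The 3 GS-KO libraries were below the 3 WT libraries for both (log2 fold change -0.10 ± 0.033, adjusted p = 0.027 for Gata1 and -0.11 ± 0.029, adjusted p = 0.0037 for Klf1, SE), but Gata1 lost its call without GS-KO replicate 1 (adjusted p = 0.053), WT replicate 2 (adjusted p = 0.0937) or WT replicate 3 (adjusted p = 0.111). Zfpm1, the cofactor of Gata1, fell (541 CPM in GS-KO and 607 CPM in WT), as did E2f4, an E2F factor needed for erythroid expansion (474 CPM in GS-KO and 533 CPM in WT). Sox6, a repressor of embryonic globin genes, rose (26.4 CPM in GS-KO and 13.9 CPM in WT), as did E2f2 (48.3 CPM in GS-KO and 31.4 CPM in WT) and Nfe2 (72.3 CPM in GS-KO and 57.7 CPM in WT), a partner in globin gene activation. Ets1, a factor of lymphoid and early progenitor cells, was the largest rise of the list (19.4 CPM in GS-KO and 0.729 CPM in WT).

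Beside Epor, the genes of the erythropoietin and STAT5 response did not move one way. Of 18 listed genes 11 were tested, of which 5 rose and 4 fell, beside 17.9% higher and 11.5% lower over all tested genes. The list median of 0.425 changed sign, to -0.087, where only genes with a mean of at least 5 CPM were kept. Jak2, the kinase bound to the receptor, fell (168 CPM in GS-KO and 191 CPM in WT, log2 fold change -0.19 ± 0.035, SE). Pim1, a kinase gene induced by STAT5, rose (21 CPM in GS-KO and 15.1 CPM in WT, 0.47 ± 0.1), as did Bcl2l1, which encodes the survival factor BCL-XL (21.5 CPM in GS-KO and 8.21 CPM in WT, 1.37 ± 0.12). Myc, which drives growth and division, was detected at 389, 378 and 387 CPM in the GS-KO libraries, against 341, 321 and 339 CPM in the WT libraries. Its groups did not overlap, and Myc rose (log2 fold change 0.20 ± 0.028 SE, adjusted p = 8.01e-07).

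Among genes of heme synthesis, small falls stood beside 3 large rises. Of 16 tested, 3 rose and 8 fell, beside 17.9% higher and 11.5% lower over all tested genes, and the median log2 fold change was -0.115. Alad and Cpox, enzymes of the pathway after its first step, fell (log2 fold change -0.23 ± 0.032 for Alad and -0.16 ± 0.025 for Cpox, SE). Alas2, Alas1, the housekeeping form of the same enzyme (74 CPM in GS-KO and 35 CPM in WT), and Slc25a37, the mitochondrial iron importer mitoferrin (90.9 CPM in GS-KO and 34.4 CPM in WT), were the 3 rises. KLF matches were in 11 of the 12 heme synthesis promoters in the table, against 68.4% of tested genes. Of the 6 tested genes of heme export and breakdown, Hmox1, heme oxygenase of macrophages and stressed cells, rose (6.19 CPM in GS-KO and 1.23 CPM in WT) and Blvrb, biliverdin reductase B, fell (243 CPM in GS-KO and 267 CPM in WT).

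Iron handling genes that passed the test mostly fell. Of 20 tested, 1 rose and 10 fell, with a median of -0.112, beside 11.5% lower and a median of 0.0039 over all tested genes. Tfrc, the transferrin receptor, was detected at 815, 787 and 821 CPM in the GS-KO libraries, against 910, 928 and 906 CPM in the WT libraries (log2 fold change -0.18 ± 0.024 SE, adjusted p = 3.91e-07). The highest GS-KO library was below the lowest WT library. Fth1, ferritin heavy chain, fell (1010 CPM in GS-KO and 1150 CPM in WT), as did Steap3, the ferrireductase of the transferrin cycle (190 CPM in GS-KO and 217 CPM in WT), and Glrx5, of iron-sulfur cluster assembly (141 CPM in GS-KO and 160 CPM in WT). Ncoa4, the receptor for ferritin breakdown, was the rise (38.7 CPM in GS-KO and 24.6 CPM in WT, log2 fold change 0.65 ± 0.085, SE).

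Red cell membrane genes moved both ways. Of 22 tested, 6 rose and 10 fell, with a median of -0.0948, beside 17.9% higher and 11.5% lower over all tested genes. Ank1, ankyrin of the membrane skeleton, fell (638 CPM in GS-KO and 736 CPM in WT), as did Add2, beta-adducin (352 CPM in GS-KO and 403 CPM in WT), and Rhag, the Rh-associated ammonium and gas channel (165 CPM in GS-KO and 201 CPM in WT, log2 fold change -0.28 ± 0.036, SE). Beside Slc4a1, Epb4.2, protein 4.2 of the same complex, rose (30.8 CPM in GS-KO and 18.3 CPM in WT), as did Tmod1, which caps actin filaments (4.41 CPM in GS-KO and 0.414 CPM in WT). Of the 12 early erythroid markers 8 fell and none rose, with a median of -0.113. Of the ammonium transport and urea cycle genes, 3 of 10 were tested and Rhag was the 1 that passed.

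Beyond Glul, enzymes of glutamine and glutamate showed small falls and few rises. Of 19 tested, Glul included, 2 rose and 6 fell, with a median of -0.104, beside 17.9% higher and 11.5% lower over all tested genes. Asns, which uses glutamine to make asparagine, was detected at 280, 262 and 266 CPM in the GS-KO libraries, against 308, 307 and 315 CPM in the WT libraries (log2 fold change -0.21 ± 0.029 SE, adjusted p = 6.1e-07). The highest GS-KO library was below the lowest WT library. Gclc and Gclm, the subunits of the enzyme that starts glutathione synthesis from glutamate, fell (129 CPM in GS-KO and 146 CPM in WT for Gclc, 229 CPM in GS-KO and 254 CPM in WT for Gclm). Glud1, glutamate dehydrogenase, rose (104 CPM in GS-KO and 84.7 CPM in WT), as did Prodh, proline dehydrogenase (16.9 CPM in GS-KO and 9.7 CPM in WT).

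Of 27 tested genes of purine and pyrimidine synthesis, 4 rose and 9 fell, with a median of -0.0765. The shares over all tested genes were 17.9% higher and 11.5% lower, here and for the transporter and folate lists. Rrm1 and Rrm2, the subunits of ribonucleotide reductase, fell (711 CPM in GS-KO and 786 CPM in WT for Rrm1, 255 CPM in GS-KO and 284 CPM in WT for Rrm2), as did Pfas, a purine enzyme that consumes glutamine (410 CPM in GS-KO and 447 CPM in WT). Adssl1, an adenylosuccinate synthase known mostly from muscle, rose (13.2 CPM in GS-KO and 1.26 CPM in WT). Of 20 tested amino acid transporters, 2 rose and 3 fell, with a median of -0.00326. Slc38a5, a glutamine and glycine carrier, fell (104 CPM in GS-KO and 116 CPM in WT), as did Slc38a9, the lysosomal arginine sensor (63.4 CPM in GS-KO and 80.3 CPM in WT), and Slc6a9, the glycine carrier of maturing erythroid cells, rose (7.41 CPM in GS-KO and 1.36 CPM in WT). Of 14 tested genes of serine, glycine and folate metabolism, 1 rose and 3 fell, with a median of -0.0316. Mthfd1 and Mat2a fell (1050 CPM in GS-KO and 1150 CPM in WT for Mthfd1, 353 CPM in GS-KO and 391 CPM in WT for Mat2a), and Shmt1, the cytosolic serine hydroxymethyltransferase, rose (18.3 CPM in GS-KO and 12 CPM in WT).

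DNA replication genes held the largest share of falls among the gene lists. Of 33 tested, 24 fell and none rose, beside 11.5% lower over all tested genes, with a median log2 fold change of -0.116. Their sum was 8246 to 8293 CPM in GS-KO libraries and 8946 to 9034 CPM in WT libraries, so the libraries did not overlap. Mcm4, a subunit of the replicative helicase, was detected at 514, 522 and 519 CPM in the GS-KO libraries, against 601, 589 and 596 CPM in the WT libraries (log2 fold change -0.20 ± 0.024 SE, adjusted p = 4.23e-08). Cdc6, which loads the helicase, was detected at 226 CPM in GS-KO and 263 CPM in WT, Cdt1, its partner, at 165 CPM in GS-KO and 188 CPM in WT, and Rfc4, of the clamp loader, at 75.1 CPM in GS-KO and 89.3 CPM in WT, all 3 falls. Of 30 tested mitosis genes, 13 fell and 1 rose, with a median of -0.0825. Plk1, Bub1 and Ccna2 fell (log2 fold change -0.18 ± 0.044, -0.20 ± 0.046 and -0.15 ± 0.027 in that order, SE). Counts are relative to the library total, and the genes that rose at least 2-fold took 16460 CPM in GS-KO and 2131 CPM in WT. The part of that shift in these falls was not tested.

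Cell cycle inhibitors and G1 cyclins moved both ways. Of 20 tested, 9 rose and 3 fell, with a median of 0.109, beside 17.9% higher and 11.5% lower over all tested genes. Ccnd2, a G1 cyclin, rose (133 CPM in GS-KO and 101 CPM in WT), as did Cdkn2d, an inhibitor of cyclin D kinases (7.17 CPM in GS-KO and 2.35 CPM in WT), and Btg2, an antiproliferative gene and p53 target (11.4 CPM in GS-KO and 1.55 CPM in WT). Ccne1, the cyclin of S phase entry, fell (184 CPM in GS-KO and 218 CPM in WT), as did Rb1 (115 CPM in GS-KO and 133 CPM in WT). Cdkn1a, the p53 target that encodes p21, stood at 1.7 CPM in GS-KO and 1.15 CPM in WT and missed the threshold (adjusted p = 0.318). Of 21 tested p53 targets, 4 rose and 2 fell, with a median of 0.00179. Of 35 replication-dependent histone genes, 7 rose and 6 fell, with a median of 0.0266. Hist1h1b, a linker histone, fell (882 CPM in GS-KO and 994 CPM in WT), and Hist1h2ab rose (124 CPM in GS-KO and 92.2 CPM in WT), though these genes are close copies and reads may be shared among them.

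In the respiratory chain, TCA cycle and mitochondrial ribosome lists, the genes that passed the test all fell, by small amounts, while the mitochondrial genes Slc25a37, Alas1, Alas2, Glud1 and Prodh of other lists rose, as given above. Over all tested genes, 11.5% were lower and 17.9% higher. Of 58 tested nuclear-encoded respiratory chain subunits, 18 fell and none rose, with a median of -0.0584, and of 24 genes of the TCA cycle 10 fell and none rose, with a median of -0.0681. Cs, citrate synthase, was detected at 360, 368 and 384 CPM in the GS-KO libraries, against 411, 416 and 423 CPM in the WT libraries (log2 fold change -0.17 ± 0.027 SE, adjusted p = 1.2e-05). Idh3a, of isocitrate dehydrogenase, fell (365 CPM in GS-KO and 414 CPM in WT), as did Uqcrc1, of complex III (313 CPM in GS-KO and 345 CPM in WT), and Ndufb8, of complex I (100 CPM in GS-KO and 117 CPM in WT). Of 60 mitochondrial ribosomal protein genes 4 fell and none rose, with a median of -0.0403. Of 72 cytosolic ribosomal protein genes 18 rose and 14 fell, with a median of 0.000853. Rpl35a rose (103 CPM in GS-KO and 74.2 CPM in WT) and Rpsa fell (2490 CPM in GS-KO and 2810 CPM in WT). Of 30 ribosome biogenesis genes 3 rose and 7 fell, with a median of -0.0392, Wdr43 and Nop58 among the falls (523 CPM in GS-KO and 566 CPM in WT for Wdr43, 629 CPM in GS-KO and 672 CPM in WT for Nop58).

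Glycolysis genes moved both ways. Of 19 tested, 9 rose and 2 fell, with a median of 0.142, beside 17.9% higher, 11.5% lower and a median of 0.0039 over all tested genes. Pkm, the pyruvate kinase of leukocytes and proliferating cells, was detected at 70.8, 66.7 and 69.5 CPM in the GS-KO libraries, against 0.602, 0.843 and 0.96 CPM in the WT libraries. Every GS-KO library was above every WT library for Pkm (log2 fold change 6.40 ± 0.15, SE), as for Hk2, hexokinase 2 (18.8 CPM in GS-KO and 4.7 CPM in WT), Bpgm, the red cell enzyme whose product loosens oxygen from hemoglobin (39.4 CPM in GS-KO and 15.7 CPM in WT), and Gpi1, phosphoglucose isomerase (246 CPM in GS-KO and 184 CPM in WT). Of 16 tested hypoxia response genes, 5 rose and 1 fell, with a median of 0.113. Vegfa rose (18.7 CPM in GS-KO and 10.6 CPM in WT), as did Ndrg1 (8.18 CPM in GS-KO and 1.49 CPM in WT), and Pdk1, which restrains pyruvate dehydrogenase, fell (102 CPM in GS-KO and 121 CPM in WT). Neutrophil markers were higher in the same libraries, and their part in these rises was not tested.

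Stress programs were mixed. Of 21 tested genes of the integrated stress response, 2 rose and 3 fell, with a median of -0.0291. The shares over all tested genes were 17.9% higher and 11.5% lower, here and for the other stress lists. Atf4, its central factor, was detected at 198, 209 and 207 CPM in the GS-KO libraries, against 204, 189 and 189 CPM in the WT libraries, and these libraries overlapped (log2 fold change 0.078 ± 0.035 SE, adjusted p = 0.0945). Cebpb and Ppp1r15a rose (12.8 CPM in GS-KO and 7.48 CPM in WT for Cebpb, 40.8 CPM in GS-KO and 27.7 CPM in WT for Ppp1r15a), while Asns and Gars, the glycyl-tRNA synthetase, fell. Of 18 genes of the unfolded protein response, 6 rose and 1 fell, with a median of 0.0529, and Calr, calreticulin, and Xbp1 were among the rises (1210 CPM in GS-KO and 1050 CPM in WT for Calr, 30.3 CPM in GS-KO and 21.2 CPM in WT for Xbp1). Of 28 NRF2 targets and antioxidant genes, 5 rose and 8 fell, with a median of -0.053. Sod1, superoxide dismutase, fell (log2 fold change -0.30 ± 0.025 SE, adjusted p = 2.34e-11), as did Prdx2, the main red cell peroxiredoxin (482 CPM in GS-KO and 553 CPM in WT). Gsr, glutathione reductase, and Gstm1, a glutathione transferase, rose (178 CPM in GS-KO and 130 CPM in WT for Gsr, 23 CPM in GS-KO and 2.06 CPM in WT for Gstm1). Of 14 heat shock genes, 2 rose and 2 fell, with a median of -0.0394, Hspd1 and Hsph1 being the falls (934 CPM in GS-KO and 1040 CPM in WT for Hspd1, 472 CPM in GS-KO and 523 CPM in WT for Hsph1).

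Of 10 tested BCL2 family genes, 2 rose and 1 fell, with a median of 0.0768, close to the 17.9% higher and 11.5% lower over all tested genes. Bcl2, a survival gene of lymphoid and early progenitor cells, rose beside Bcl2l1 (10.9 CPM in GS-KO and 1.51 CPM in WT), and Bcl2l11, which encodes the death factor BIM, fell (56.9 CPM in GS-KO and 67.9 CPM in WT). Of 18 tested interferon response genes, 8 rose and none fell, with a median of 0.335, beside the same 17.9% and 11.5%. Rsad2, an antiviral enzyme, rose at a low level (26.9 CPM in GS-KO and 3.33 CPM in WT). Of 12 tested immediate early genes, 5 rose and none fell, with a median of 0.34, beside the same shares, Klf6 and Zfp36 among them (11.3 CPM in GS-KO and 2.3 CPM in WT for Klf6, 3.71 CPM in GS-KO and 0.869 CPM in WT for Zfp36). These genes are also expressed in leukocytes, whose markers were higher in the same libraries and whose part was not tested.

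Of 23 tested genes of cholesterol synthesis and uptake, 2 rose and none fell, with a median of 0.118. As before, 17.9% were higher and 11.5% lower over all tested genes. Of 13 fatty acid synthesis genes, 2 rose and 3 fell, with a median of -0.0442, Scd2 rising (158 CPM in GS-KO and 138 CPM in WT) and Acss2, which makes acetyl-CoA from acetate, falling (52.4 CPM in GS-KO and 65.1 CPM in WT). Of 28 genes of autophagy and mitochondrial clearance, 4 rose and 2 fell, with a median of 0.104, and Tfeb, a lysosomal transcription factor, rose (5.14 CPM in GS-KO and 2.04 CPM in WT) while the protease Atg4b fell (68.8 CPM in GS-KO and 80.5 CPM in WT). Of 31 proteasome subunits, 1 rose and 8 fell, with a median of -0.0593, Psma1 and Psma3 among the falls (125 CPM in GS-KO and 142 CPM in WT for Psma1, 145 CPM in GS-KO and 166 CPM in WT for Psma3). Of 19 late erythroid ubiquitin enzymes, 8 rose and 3 fell, with a median of 0.132. Ube2l6 rose (48.7 CPM in GS-KO and 35.4 CPM in WT), as did Ube2o, which clears ribosomes in reticulocytes (78.4 CPM in GS-KO and 62.4 CPM in WT), and Trim10 (44 CPM in GS-KO and 31 CPM in WT), while Usp15 fell (356 CPM in GS-KO and 391 CPM in WT).

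**Figure D5:**
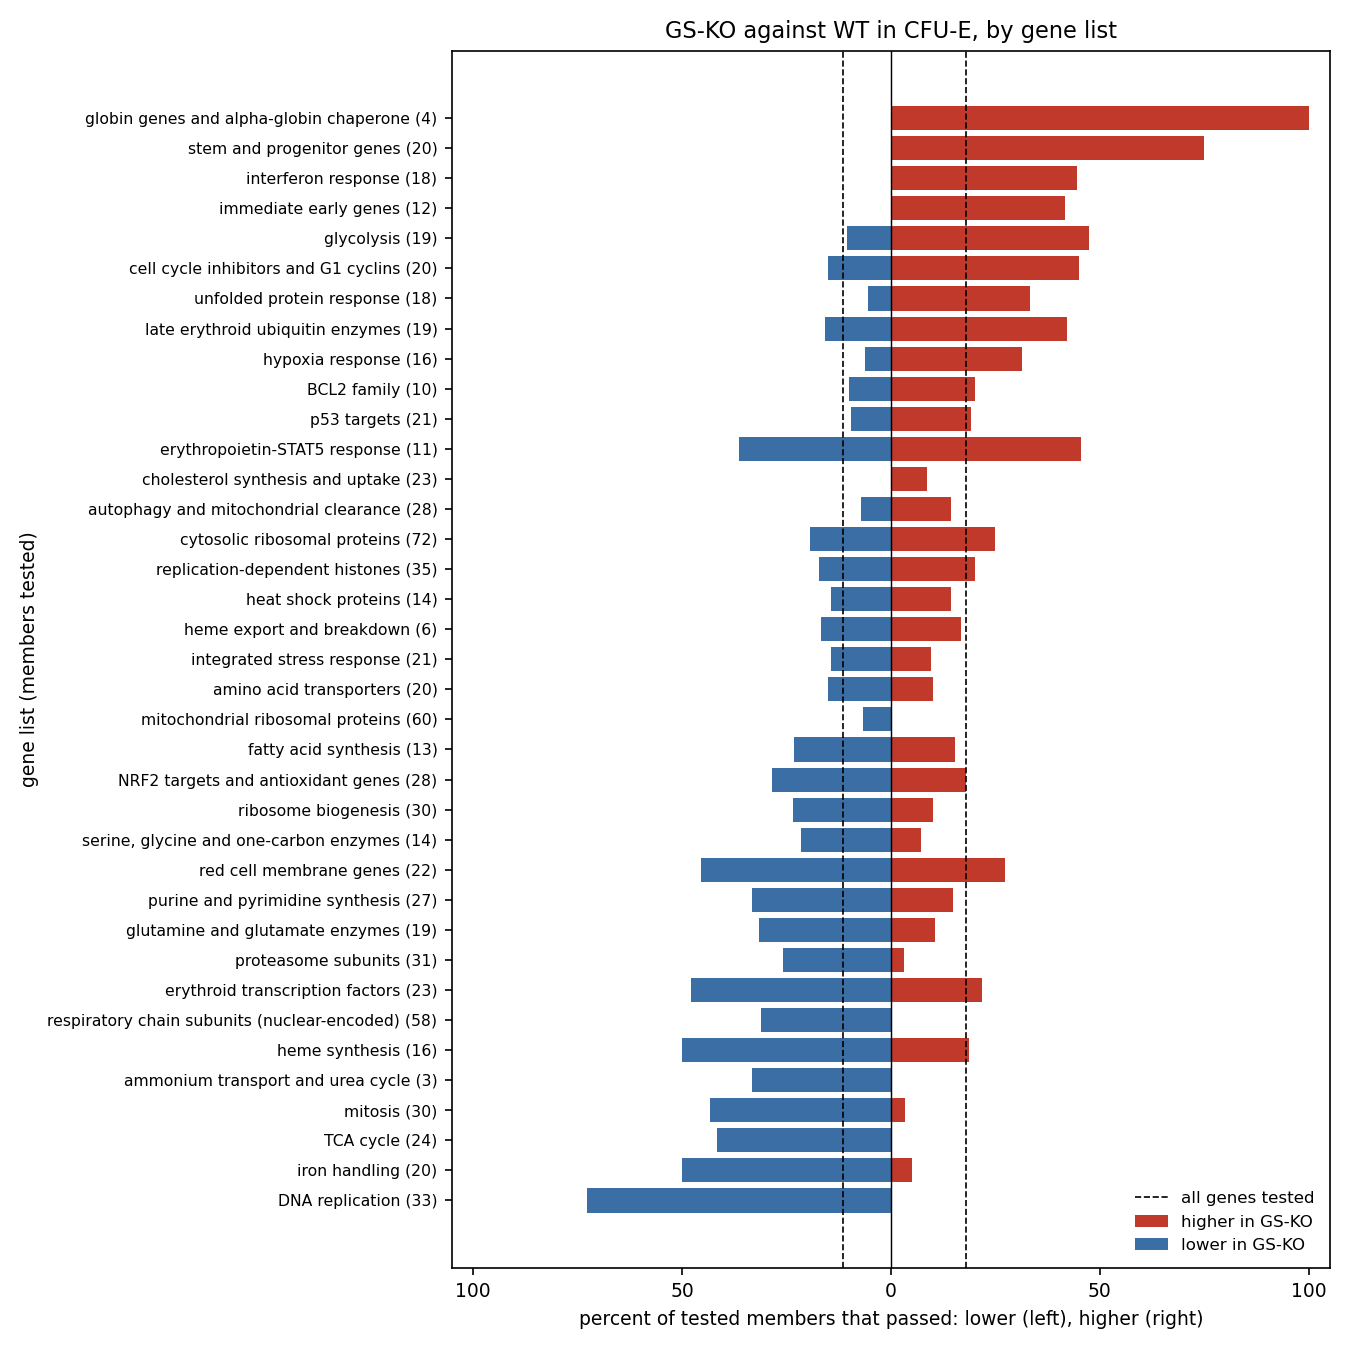
Percent of the tested members of 37 gene lists that were lower (left) or higher (right) in GS-KO CFU-E, with the number tested in brackets. Dashed lines mark 11.5% lower and 17.9% higher over all tested genes; DNA replication (24 of 33 lower) lies at one end, and globin genes (4 of 4 higher) with stem and progenitor genes (15 of 20 higher) at the other.

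The share of p53 targets called, 4 of 21 higher and 2 of 21 lower, lay near the shares over all tested genes, and that of mitochondrial ribosomal proteins, 4 of 60 lower and none higher, lay under both. The medians of cytosolic ribosomal proteins, p53 targets, amino acid transporters, histones and the serine and glycine, unfolded protein and integrated stress lists lay near 0 and changed sign in some alternative fits.

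Among the genes with at least 5 CPM over the 6 libraries, the largest rises included genes with no WT count. Itgb2l, a leukocyte integrin, was detected at 11, 11.1 and 13.7 CPM in the GS-KO libraries, against 0, 0 and 0 CPM in the WT libraries, and Olfm4, a neutrophil granule protein, at 11.8, 10.2 and 10.1 CPM in the GS-KO libraries, against 0, 0 and 0 CPM in the WT libraries. Set against a floor of 3 counts over the WT group, Itgb2l was at least 94.5-fold higher in GS-KO and Olfm4 at least 84.8-fold higher. Mmp9, gelatinase B of neutrophils, rested on 2 WT counts and was higher by 317-fold, with a 95% counting interval of 87.4 to 2620. Ly6c2, a surface antigen of myeloid precursors, was higher by 262-fold, with a 95% counting interval of 72.2 to 2170, also on 2 WT counts. Cd177, a neutrophil surface protein, was detected at 66.7, 71.4 and 69.3 CPM in the GS-KO libraries, against 0.12, 0.422 and 0.36 CPM in the WT libraries. All of these were near 0 in every WT library.

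The largest falls were smaller. Rap1gap, which switches off the GTPase Rap1, was detected at 12.5, 9.65 and 12 CPM in the GS-KO libraries, against 30.2, 29.2 and 28.3 CPM in the WT libraries (log2 fold change -1.37 ± 0.1 SE, adjusted p = 3.02e-12). Pawr, a regulator of cell death, was detected at 25.4, 27.7 and 23.9 CPM in the GS-KO libraries, against 46.6, 55 and 52.3 CPM in the WT libraries (log2 fold change -1.01 ± 0.082 SE, adjusted p = 1.29e-11), and Mid1, a ubiquitin ligase on microtubules, at 6.56, 5.5 and 5.69 CPM in the GS-KO libraries, against 11.9, 13.6 and 11.5 CPM in the WT libraries (log2 fold change -1.08 ± 0.15 SE, adjusted p = 6.89e-07). In these 3 genes each GS-KO library was below each WT library, and with Glul and Epor they were the 5 falls of at least 2-fold with at least 5 CPM and no overlap.

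Genes already present at 20 CPM or more in stage-series CFU-E were also ranked, after their values were seen. Besides globin genes and Slc4a1, the largest rises were in Arhgdib, a GTPase regulator of blood cells (146, 139 and 145 CPM in the GS-KO libraries, against 19.9, 16.9 and 19.9 CPM in the WT libraries), and Sun2, of the nuclear envelope (107 CPM in GS-KO and 25.9 CPM in WT). Xpo7, a nuclear transport receptor of erythroid maturation, rose (71.5 CPM in GS-KO and 22.2 CPM in WT), as did Rac2 and its activator Dock2, both of blood cell motility (78.9 CPM in GS-KO and 27 CPM in WT for Rac2, 107 CPM in GS-KO and 38.2 CPM in WT for Dock2). Laptm5 and Lyst, of lysosomes, rose too (64.4 CPM in GS-KO and 21.9 CPM in WT for Laptm5, 88.4 CPM in GS-KO and 32.9 CPM in WT for Lyst). After Glul and Epor the falls were led by Trpv2, a cation channel (14.5 CPM in GS-KO and 24.7 CPM in WT), Fads3, of the fatty acid desaturase family (73.6 CPM in GS-KO and 112 CPM in WT), Sh3tc2 (28.7 CPM in GS-KO and 43.9 CPM in WT) and Gpc4, a glypican (17.3 CPM in GS-KO and 27.7 CPM in WT).

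The effect of GS-KO in CFU-E was compared with that in BFU-E and in ERY-I-II through the interaction of genotype and gate, each gate having WT libraries of its own. Against BFU-E, 1716 of 11641 genes differed (14.7%), 1326 with a higher log2 fold change in CFU-E (11.4%) and 390 with a lower one (3.35%). The median difference over all genes was 0.0785 in this fit and 0.00959 with RLE size factors, another scaling, under which 1611 genes differed. Small differences from BFU-E thus depend in part on the scaling. Against ERY-I-II, 2202 of 11046 differed (19.9%), 567 higher (5.13%) and 1635 lower in CFU-E (14.8%). In BFU-E itself 15.4% of 11356 genes rose and 8.59% fell, and in ERY-I-II 22.9% of 9954 rose and 17.5% fell. Of the 1938 rises in CFU-E also tested in BFU-E, 1133 were rises there too, 58.5% of the CFU-E rises and 70% of the BFU-E rises. Of the 1239 falls, 281 were shared, 22.7% of the CFU-E falls and 29.2% of the BFU-E falls. With ERY-I-II, 77.5% of the CFU-E rises and 52.5% of the CFU-E falls were shared, or 57.6% of the rises and 37.4% of the falls of ERY-I-II.

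Genes that BFU-E of both genotypes express, and that WT CFU-E barely held, differed most from BFU-E. Vim, vimentin of the cytoskeleton, was detected in CFU-E at 77.1, 74 and 75.9 CPM in the GS-KO libraries, against 1.08, 0.843 and 0.96 CPM in the WT libraries. In BFU-E it averaged 316 CPM in GS-KO BFU-E and 256 CPM in WT BFU-E (difference 5.98 ± 0.14 SE, adjusted p = 4.79e-33). GS-KO CFU-E thus lay between WT CFU-E and BFU-E of either genotype for Vim. Rin3, a Rab5 exchange factor, followed (27.6 CPM in GS-KO CFU-E and 0.374 CPM in WT CFU-E, 96.3 CPM in GS-KO BFU-E and 56.8 CPM in WT BFU-E), as did Igj, the immunoglobulin J chain (15.5 CPM in GS-KO CFU-E and 0.407 CPM in WT CFU-E, 49.2 CPM in GS-KO BFU-E and 50.3 CPM in WT BFU-E). Ctla2a, Dok2 and Il16, also named by rule, had 3 or fewer counts over the WT CFU-E libraries and stood at 2.39 against 0 CPM, 1.3 against 0 CPM and 15.8 against 0.141 CPM in GS-KO against WT CFU-E. Gata2 rose in CFU-E and fell in GS-KO BFU-E (295 CPM in GS-KO BFU-E and 335 CPM in WT BFU-E, difference 0.75 ± 0.068 SE, adjusted p = 6.26e-12). Kit (0.28 ± 0.036 SE, adjusted p = 1.17e-07) and Myc (0.29 ± 0.037 SE, adjusted p = 5.56e-08) differed in the same direction by less, and Tfrc in the opposite one (-0.42 ± 0.037 SE, adjusted p = 2.76e-12).

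In the other direction, some genes were near 0 in WT BFU-E and present in CFU-E of both genotypes. Sec14l2, a lipid transfer protein, stood at 21.3 CPM in GS-KO CFU-E and 31.8 CPM in WT CFU-E, against 6.35 CPM in GS-KO BFU-E and 0.881 CPM in WT BFU-E (difference -3.37 ± 0.3 SE, adjusted p = 5.94e-12). Scd1, a fatty acid desaturase, stood at 12.8 CPM in GS-KO CFU-E and 16.3 CPM in WT CFU-E, against 4.98 CPM in GS-KO BFU-E and 0.363 CPM in WT BFU-E, and Fhdc1, a formin, at 16.1 CPM in GS-KO CFU-E and 8.09 CPM in WT CFU-E, against 17.6 CPM in GS-KO BFU-E and 0.497 CPM in WT BFU-E. Rab3il1, a Rab exchange factor, followed the same pattern (12.9 CPM in GS-KO CFU-E and 12.6 CPM in WT CFU-E, 12.3 CPM in GS-KO BFU-E and 0.874 CPM in WT BFU-E). Prg4, lubricin, stood apart, at 0.525 CPM in GS-KO CFU-E and 0.748 CPM in WT CFU-E, against 47 CPM in GS-KO BFU-E and 0.743 CPM in WT BFU-E. Mgam, maltase-glucoamylase, was higher in GS-KO in both gates (11.4 CPM in GS-KO CFU-E and 0.301 CPM in WT CFU-E, 19.6 CPM in GS-KO BFU-E and 0.034 CPM in WT BFU-E), with 1 WT count in BFU-E.

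Against ERY-I-II, genes with a larger effect in CFU-E included erythroblast genes. Beside Slc4a1 and Hbb-b1, Slfn14, an RNA-cutting protein of platelets and erythroblasts, stood at 9.06 CPM in GS-KO CFU-E and 0.16 CPM in WT CFU-E, against 345 CPM in GS-KO ERY-I-II and 128 CPM in WT ERY-I-II (difference 3.999, adjusted p = 1.64e-11). Apol11b and E130309D14Rik had at most 1 count over the WT CFU-E libraries and averaged 5.05 against 0.04 CPM and 1.57 against 0 CPM in GS-KO against WT CFU-E. Plekhh2 was uneven, at 13.9, 8.51 and 0.316 CPM in the GS-KO libraries, against 0.12, 0 and 0 CPM in the WT libraries, and the third GS-KO library lay near the WT libraries. Of the 6 genes named by rule for a smaller effect in CFU-E, 5 were expressed in WT CFU-E and nearly absent from WT ERY-I-II. Klhl6, of lymphoid cells, stood at 24 CPM in GS-KO CFU-E and 12.9 CPM in WT CFU-E, against 11.6 CPM in GS-KO ERY-I-II and 0.274 CPM in WT ERY-I-II (difference -4.67 ± 0.41 SE, adjusted p = 2.61e-13), and Kit, which that rule did not name, at 32.5 CPM in GS-KO ERY-I-II and 11.8 CPM in WT ERY-I-II (difference -1.58 ± 0.11 SE, adjusted p = 4.13e-17). Cd84, Slc22a3, Dpy19l3 and Prodh were of the same kind, with 2 or fewer counts over the WT ERY-I-II libraries and 5.39 to 20.2 CPM in WT CFU-E. The other, Igj, was low in WT of both gates (15.5 CPM in GS-KO CFU-E and 0.407 CPM in WT CFU-E, 10.3 CPM in GS-KO ERY-I-II and 0 CPM in WT ERY-I-II), and its difference of -4.62 (adjusted p = 0.0249) missed the threshold with all 10 groups in 1 fit (adjusted p = 0.103). Tfrc fell in CFU-E and stood at 2562 CPM in GS-KO ERY-I-II and 2592 CPM in WT ERY-I-II (difference -0.33 ± 0.032 SE, adjusted p = 2.87e-12), a difference that came to -0.163 (adjusted p = 6.18e-05) with library totals in place of TMM.

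The stage series, which shares no library with GS-KO or WT, was used to sort the tested genes by how they change on either side of CFU-E. In it 18.2% of 10807 genes were higher in CFU-E than in BFU-E and 19.1% lower, and 25.4% of 10460 were higher in ERY-I than in CFU-E and 20.9% lower. Of the 1887 tested genes that go down from BFU-E to CFU-E in the stage series, 48.8% rose in GS-KO CFU-E and 0.954% fell, with a median log2 fold change of 0.28. Of the 1952 that go up, 3.18% rose and 32.7% fell, with a median of -0.0913. Of the 6570 with no call at that step, 9.36% rose and 8.86% fell. At the next step, of the 2495 that are higher in ERY-I, 24.2% rose and 14.4% fell. Of the 2186 that are lower in ERY-I, 3.89% rose and 13.2% fell. Of the 5474 with no call there, 15.3% rose and 10.7% fell. Genes near 0 in WT CFU-E passed the filter only through their GS-KO libraries, so among them rises were favoured in advance. These are counts with no test of the groups of genes, and the neutrophil sum was higher in the same libraries, whose part was not tested.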

How the data were processed

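RNA was measured by stranded total RNA-seq of flow-sorted bone marrow cells. Per the labels' protocols, libraries were made with Takara's SMARTer Pico Input kit for stranded total RNA. Per the submitters' processing notes, STAR 2.5.2b, HTSeq and the mm10 build were used; the HTSeq version and annotation are not stated. The deposited values are whole-number counts per gene symbol, which the authors had not normalized, and all 24059 rows name a gene. Of these symbols, 22548 match a RefSeq symbol.

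From the counts, genes were kept by filterByExpr of edgeR 4.0.16 (minimum count 10, minimum total 15), scaled by TMM and tested with the quasi-likelihood test in R 4.3.3, with Benjamini-Hochberg adjustment over all tested genes. CFU-E were fitted alone (6 libraries) without covariates, and each interaction in 12 libraries. CPM were computed from library totals. SE is the log2 fold change divided by the square root of F. Counting intervals are exact 95% intervals that cover counting error only. Alternatives were DESeq2 1.42.0, limma-voom (limma 3.58.1), other size factors, other filters, a replicate block, all 10 groups in 1 fit and leaving out each library. A test against a 1.2-fold change, the restriction to genes expressed in the stage series, and the naming of genes with at least 20 CPM there were chosen after seeing the data.

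Libraries of a group differed by more than sampling noise (chi-square per degree of freedom 2.02 to 4.89 in GS-KO and 1.29 to 1.64 in WT), and each counted as 1 replicate. The fits were tested on simulated data, in which false calls made up slightly more than the nominal share in CFU-E and part of the small changes was missed.

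The members, gene lists and tests were chosen with earlier results of these data known. Named are Glul and landmark genes, the largest changes with at least 5 CPM and no overlap, up to 3 called members of each of 44 gene lists with the largest change and up to 3 with the smallest adjusted p, and the 6 largest interactions in each direction; the text leaves out part of these. Lists are described by counts and medians and were not tested.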

Additional observations from a re-analysis of the deposited data

Results flagged for a closer look

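The effect of GS-KO differed between CFU-E and BFU-E in 17 named genes whose interaction passed the threshold in edgeR's quasi-likelihood test and whose WT groups each held more than 3 counts. Over all genes tested, 1716 of 11641 differed (14.7%). The median difference over all genes was 0.0785, against 0.00959 with RLE size factors. Vim, Rin3, Igj, Prg4, Fhdc1, Scd1, Rab3il1 and Sec14l2 were named by the size of this interaction, so counting them adds no support. The values are differences of log2 fold changes, CFU-E minus BFU-E. The log2 fold change was higher in CFU-E for Vim (5.983), Rin3 (5.397) and Igj (5.23), followed by Gata2 (0.752), Myc (0.2904), Kit (0.275) and Gata1 (0.1572). It was lower in CFU-E for Prg4 (-6.426), Fhdc1 (-4.089), Scd1 (-4.034), Rab3il1 (-3.847), Sec14l2 (-3.367), Hba-a1 (-1.953), Alas2 (-0.9507), Glul (-0.9216), Hbb-b1 (-0.4836) and Tfrc (-0.4208). Gata1 passed in the fit reported and missed the threshold with RLE size factors (adjusted p = 0.295), with library totals (adjusted p = 0.0818) and with all 10 groups in 1 fit (adjusted p = 0.622).

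Between CFU-E and ERY-I-II the effect differed in 12 named genes under the same conditions, beside 2202 of 11046 over all genes (19.9%). Slfn14 and Klhl6 were named by the size of this interaction, as were the landmark genes Slc4a1 and Hbb-b1. The log2 fold change was higher in CFU-E for Slc4a1 (4.728), Hbb-b1 (4.088), Slfn14 (3.999), Hba-a1 (2.823), Alas2 (2.656) and Glul (1.466). It was lower for Klhl6 (-4.674), Kit (-1.583), Epor (-0.4954), Tfrc (-0.3342), Atf4 (-0.2749) and Klf1 (-0.139). With library totals the median difference over all genes was 0.127, against -0.0437 with TMM. Under that scaling Tfrc stood at -0.1627 (adjusted p = 6.18e-05), Atf4 stood at -0.1041 (adjusted p = 0.14), and Klf1 changed sign to 0.03202 (adjusted p = 0.621). Klf1 also missed the threshold with all 10 groups in 1 fit (adjusted p = 0.183).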

How the results depend on the processing

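No named gene that passed the threshold changed sign in CFU-E under any alternative run. DESeq2 called 2289 genes (1478 higher, 811 lower), against 3191 (1941 higher, 1250 lower) in the fit reported. It kept 2287 of those 3191 calls. Without a filter on low counts, 1458 genes changed at least 2-fold (1430 higher, 28 lower), and with a mean of at least 5 CPM required, 346 did (342 higher, 4 lower). Among genes of at least 5 CPM in stage-series CFU-E, 1977 were called, 1115 of them higher, and 138 changed at least 2-fold (136 higher, 2 lower). A test for a change above 1.2-fold called 1259 (1199 higher, 60 lower). With all 10 groups in 1 fit, 714 genes differed from BFU-E and 1247 from ERY-I-II, and 2027 of the 3191 CFU-E calls were kept, 1 gene changing sign.

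Leaving out each library in turn called 2725 to 3084 genes (1756 to 1855 higher, 969 to 1229 lower), with 931 to 1017 changed at least 2-fold (913 to 998 higher, 11 to 22 lower), and kept 2545 to 2812 of the 3191 calls. Glul ranged over -1.288 to -1.23, and its interactions over -1.026 to -0.8868 (BFU-E) and 1.365 to 1.549 (ERY-I-II); the interaction counts ranged over 1416 to 1705 and 1936 to 2118.

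Libraries of the same replicate number did not deviate together (correlations -0.0358, -0.111 and -0.0197). With 3 libraries per group this cannot exclude a batch shared by number, which the labels do not give. With the replicate block 3243 genes were called, 2012 higher and 1231 lower, 1039 at least 2-fold, and 3072 of 3191 calls were kept. Of 163 genes followed by name, 64 lost the call under at least 1 alternative, all in the test above 1.2-fold; Gata1, Scd1, Dpy19l3, Myc (adjusted p = 0.0512) and Scd2 (adjusted p = 0.246) also lost it elsewhere, the last 2 with all 10 groups in 1 fit. Kit gained it with library totals (adjusted p = 0.0469). The median changed sign in 9 of 44 lists under some alternative; 35 kept theirs. Those 9 were cytosolic ribosomal proteins, p53 targets, amino acid transporters, serine and glycine metabolism, integrated stress response, erythropoietin-STAT5 response, histones, unfolded protein response, and ammonium and urea. Depth limits genes near 0 in WT: 219 rises of at least 2-fold rest on 3 or fewer WT counts. The causes of these changes were not tested.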
